A study of Mus musculus with 4 samples.

Results

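The subject is a group of 10 immediate early genes: the AP-1 genes Fos, Fosb, Jun, Junb and Jund, the related gene Atf3, the zinc finger genes Egr1 and Egr2, and the early response genes Ier2 and Zfp36. They were chosen by symbol, and all 10 were found among the 27998 genes of the deposited matrices. Their levels were followed over all classes of cells in 4 mouse single-cell libraries, named IgG, Ac, C and aC+C in the titles, with 1 library to a group. What the abbreviations stand for is not said. Each library gives the age of the mice as 6-8 weeks, in its genotype field. The labels disagree about the cells: the titles speak of immune cells infiltrating a tumor, whereas the field for the cell type, like the protocol, has goblet cells from the gut of RedMUC298trTg mice. The protocol, which is the same text for all 4 libraries, includes incubation with collagenase and sorting of living cells by mCherry. With 1 library in each group there are no replicates, so every difference below is between libraries and has no test. Intervals are 95% intervals for counting error alone.

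Immediate early genes are transcribed within minutes of a signal, before any new protein is made, and their transcripts are short-lived. Fos and Jun proteins pair through leucine zippers to form AP-1, which binds DNA at promoters and enhancers. In lymphocytes AP-1 acts with NFAT downstream of the antigen receptor, and in macrophages it follows inflammatory signals. The same genes are also known to respond to enzymatic digestion and handling of tissue, so that a difference between libraries can be shared by all cells or be limited to some of them. The question here was which of these was seen.

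The promoters of 4 members are shown first, chosen because they hold a shared element, not for their values. The 250 bases before the start are given 5′ to 3′ on the gene's own strand, from RefSeq on build GRCm38.p6. Capitals mark TGACG or its reverse complement CGTCA, the core of the cyclic AMP response element, which proteins of the CREB and ATF families bind. Fos lies at chr12:85473640-85473889 (plus strand), Fosb at chr7:19310046-19310295 (minus), Junb at chr8:84978749-84978998 (minus) and Atf3 at chr1:191183334-191183583 (minus).
Fos: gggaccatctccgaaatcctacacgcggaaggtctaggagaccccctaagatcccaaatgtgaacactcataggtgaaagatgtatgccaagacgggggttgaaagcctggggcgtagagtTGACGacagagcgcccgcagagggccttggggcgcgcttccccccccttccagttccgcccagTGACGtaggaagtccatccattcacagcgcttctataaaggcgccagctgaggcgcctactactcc
Fosb: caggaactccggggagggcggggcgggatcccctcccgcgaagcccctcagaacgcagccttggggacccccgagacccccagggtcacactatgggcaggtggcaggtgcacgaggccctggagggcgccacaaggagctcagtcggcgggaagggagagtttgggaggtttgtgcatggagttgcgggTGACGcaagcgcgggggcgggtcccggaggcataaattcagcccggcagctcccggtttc
Junb: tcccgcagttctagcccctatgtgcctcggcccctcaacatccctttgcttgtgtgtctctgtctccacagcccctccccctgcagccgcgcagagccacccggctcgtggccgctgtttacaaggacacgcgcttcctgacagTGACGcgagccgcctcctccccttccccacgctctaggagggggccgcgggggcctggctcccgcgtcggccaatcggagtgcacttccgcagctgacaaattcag
Atf3: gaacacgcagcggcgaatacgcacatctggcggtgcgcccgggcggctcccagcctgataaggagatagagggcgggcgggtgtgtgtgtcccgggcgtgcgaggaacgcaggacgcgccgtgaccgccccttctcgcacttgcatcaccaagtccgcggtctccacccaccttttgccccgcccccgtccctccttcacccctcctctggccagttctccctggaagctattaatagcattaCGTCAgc
The Fos window holds the core at 129 and 66 bases before the start, Fosb at 60, Junb at 106 and Atf3 at 7, on the opposite strand. Of the 8 members with a window, 5 hold the core on either strand at 1 or more listed starts (the 4 shown and Egr2). The core is in 17.8% of all 32851 windows of the same length. This share counts windows, whereas the 5 of 8 counts genes, and Egr2 has several listed starts. Jun, Jund and Zfp36 have no match in this window. Ier2 and Egr1 are named only.

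Barcodes with at least 1000 UMIs, that is, counted transcript molecules, and at most 10% of UMIs from mitochondrially encoded genes were taken as cells. This gave 3436 cells in IgG, 4028 in Ac and 4210 in C, against 4081 in aC+C, with medians of 10492 to 11594.5 UMIs per cell. The leukocyte gene Ptprc was detected in 87.0% to 91.3% of cells, and Muc2, the defining mucin of goblet cells, had 2 to 4 UMIs in a whole library, so the data go against the goblet cell label. Between 2 and 8 barcodes of cells were shared between any pair of libraries. Cells were assigned to classes by fixed marker lists that hold none of the members. The classes with at least 100 cells in every library were CD8 T, CD4 T, regulatory T, other T and NK cells, called lymphocyte classes here, and C1q-high macrophages, C1q-low monocytes or macrophages and stromal cells. Other T cells are those that met no further T gate, and they have no markers of their own. Of the 10 genes that led them over the other classes, 4 are regulatory T markers (Tnfrsf4, Ikzf2, Il2ra and Ctla4), and Il17a led, so the class is a mixture. Leaving it out gave 11 of 35 lymphocyte pairs at least 1.5 times lower in aC+C than in IgG, with a median of 0.755, and 6 of 35 in Ac, with a median of 0.819. Of CD8 T cells, 99.7% had Cd3d and 98.6% Cd8a. Of C1q-high macrophages 99.4% had C1qb, against 14.7% of the C1q-low class, and 99.3% of stromal cells had Dcn. Shares of cells without a class were 11.5% in IgG, 5.54% in Ac and 11.9% in C, against 5.46% in aC+C. Doublets were not removed in the main values. Classes of 1 library share its preparation and are not replicates of each other.

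The class of a cell set the level of most members more than the library did. Levels are CPM, that is, UMIs scaled to 1000000 in each class and library after adding up its cells. The mean level of Fos over the 4 libraries was 2377 CPM in C1q-low cells and 146 CPM in CD8 T cells, a ratio of 16.3, whereas the highest and lowest libraries within a class differed by 1.14 to 2.37 times. Atf3 had the widest range over classes, 42.0 times, from 13.9 CPM in CD8 T cells to 585 CPM in C1q-low cells. The same ratio of highest to lowest class mean was 25.5 for Egr2, 17.7 for Jun, 15.7 for Zfp36 and 14.9 for Egr1. It was smaller for Ier2 (4.17), Fosb (3.92), Junb (2.93) and Jund (2.1). The 3 highest class means of Fos, Fosb, Jun, Atf3, Egr1 and Egr2 were those of the macrophage classes and stromal cells, while Junb and Jund had their highest mean levels in CD4 T cells, at 2833 and 1330 CPM. Jund, unlike the others, was lowest in C1q-high macrophages, at 634 CPM. Libraries within a class differed by up to 1.38 times for Jund and 1.58 times for Junb.

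**Figure D1:**
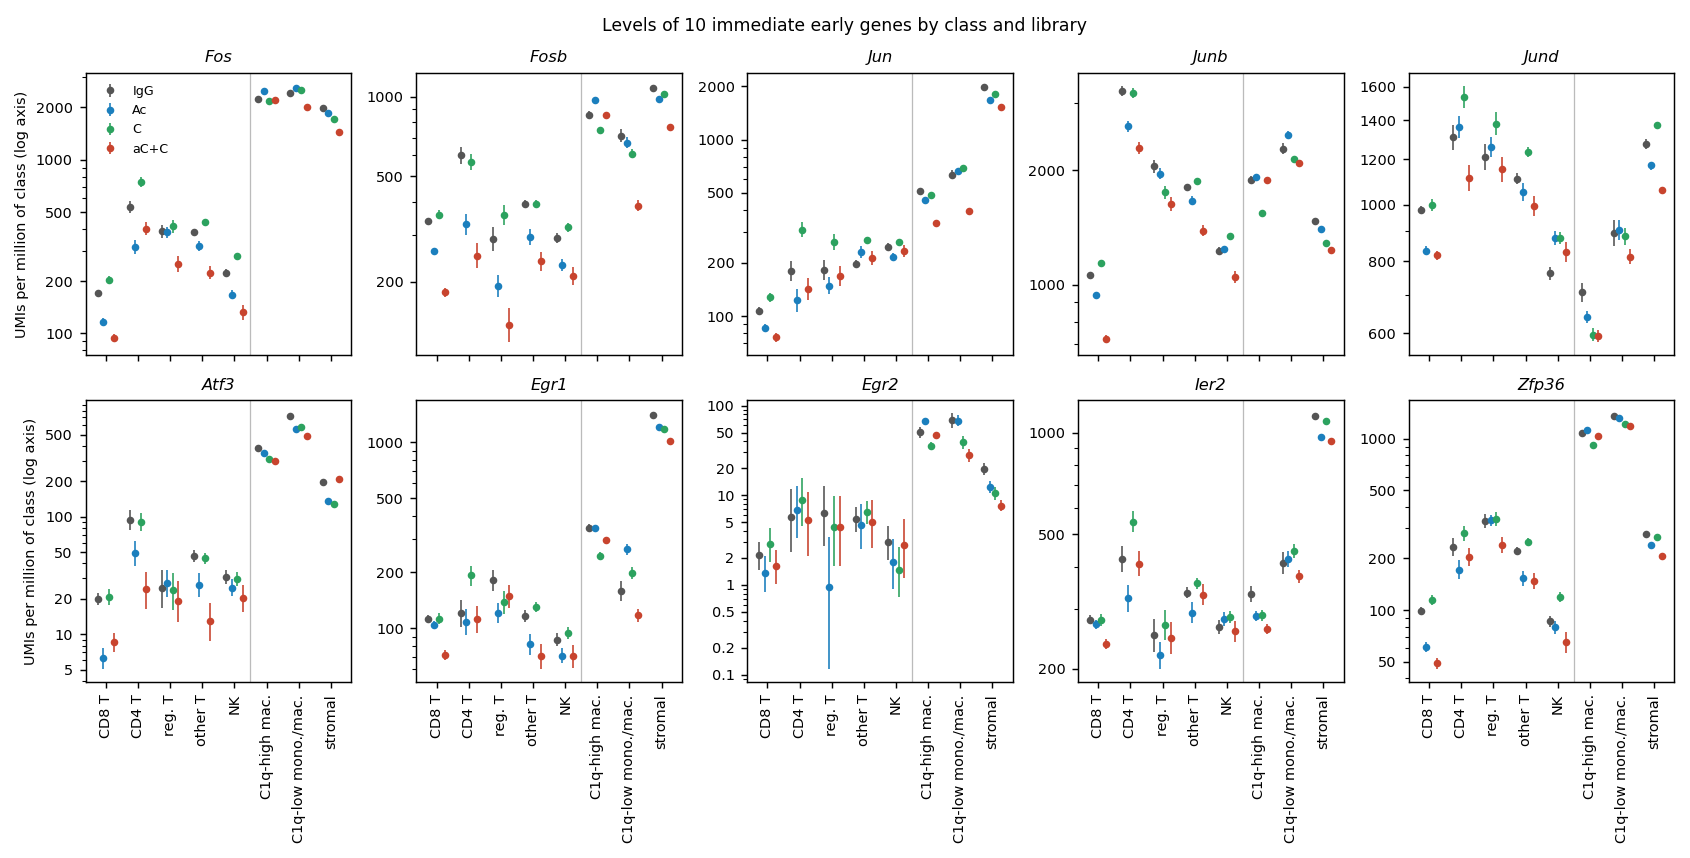
Level of each member (CPM, log axis) by class and library; points are libraries and bars are exact 95% Poisson intervals. Fos in CD8 T cells lies between 94.6 and 203 CPM and in C1q-high macrophages between 2184 and 2492 CPM, and aC+C (red) is the lowest library for Fos in 6 of 8 classes, with Ac lowest in CD4 T cells and C in C1q-high macrophages.

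Pairs at least 1.5 times lower than IgG were more frequent in lymphocytes than in the other classes in both Ac and aC+C. A member and class form a pair; 44 of 50 lymphocyte pairs and all 30 myeloid and stromal pairs reached the minimum of 100 UMIs over both libraries. Egr2 was under it in all 5 lymphocyte classes and Atf3 in regulatory T cells. In Ac against IgG, 7 of 44 lymphocyte pairs were at least 1.5 times lower (background over all genes 2.61%) and 0 at least 1.5 times higher (1.25%), with a median ratio of 0.82 beside 0.984 over all genes. Of the 30 other pairs, 1 was lower (2.62%) and 1 higher (1.90%), with a median of 0.948. In C against IgG, 2 lymphocyte pairs were higher (1.52%) and 0 lower (1.71%), with a median of 1.09. There, 3 myeloid and stromal pairs were lower (1.98%) and 0 higher (2.88%), with a median of 0.875. In aC+C against IgG, 15 lymphocyte pairs were lower (5.27%) and 0 higher (1.67%), with a median of 0.752. In the other classes 5 pairs were lower (5.37%) and 0 higher (2.87%), with a median of 0.833. All 3 comparisons share the IgG library, so they are given side by side and are not independent. In aC+C the median of all genes was itself low, at 0.921 of IgG in other T, 0.930 in CD8 T and 0.939 in stromal cells. After scaling that removes such shifts, 12 lymphocyte pairs remained at least 1.5 times lower in aC+C, and the median was 0.786. Counting intervals lay wholly below 1 in 33 of 44 lymphocyte and 24 of 30 other pairs in aC+C, and in 31 and 15 of them in Ac. No share over all genes stands beside these interval counts, so they cannot be set against a background. In lymphocytes without macrophage UMIs, described further on, the median was 0.802 in aC+C, with 32 of 44 ratios below 1, close to the 0.833 of the other classes. In Ac it was 0.896, with 28 of 44 below 1, beside 0.948. The counts of lower lymphocyte pairs were then 14 in aC+C and 6 in Ac.

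**Figure D2:**
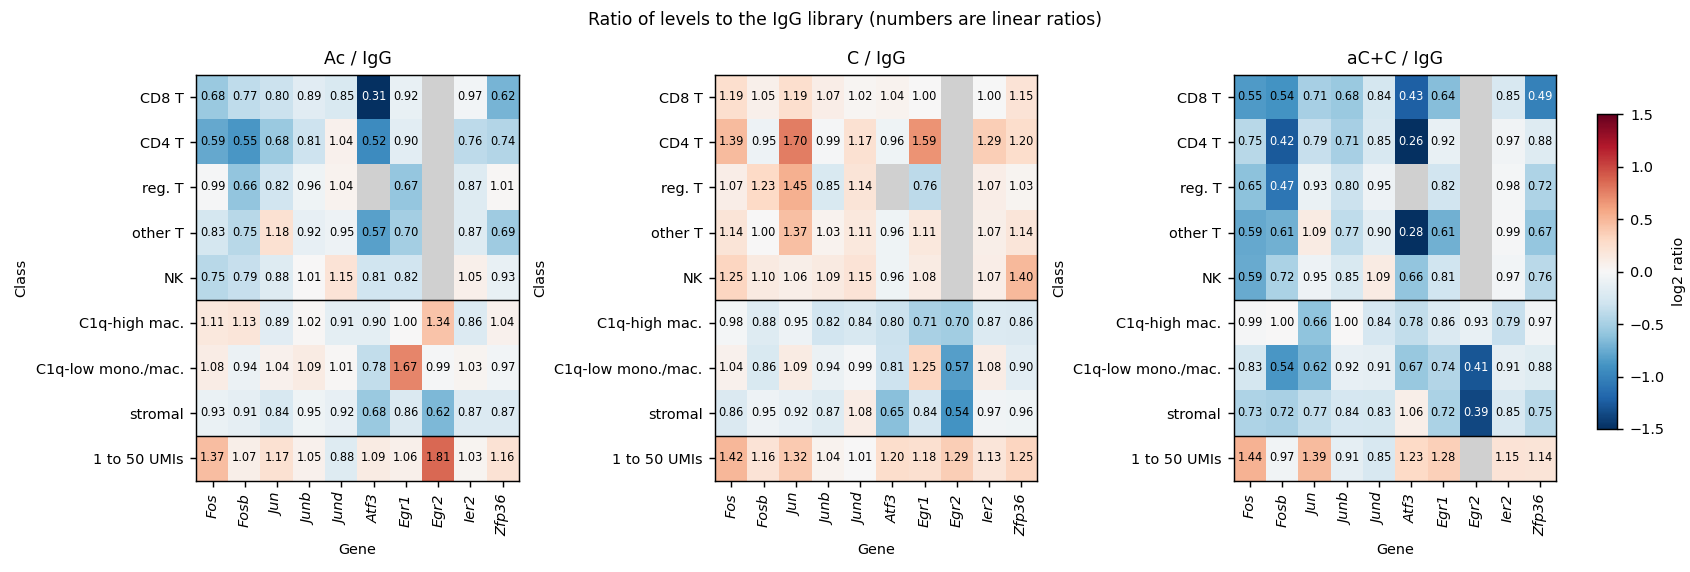
Ratio of each member's level in Ac, C or aC+C to that in IgG, by class (rows) and gene (columns); colour is the log2 ratio, saturated at 1.5, the printed numbers are linear ratios, and grey marks pairs under 100 UMIs. The bottom row gives barcodes of 1 to 50 UMIs, where Fos is 1.37 to 1.44 times IgG in the same libraries.

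Fos, which has no homodimer of its own and works as the partner of Jun proteins, was lower in aC+C than in IgG in every lymphocyte class. In CD8 T cells its level was 171 CPM in IgG, 116 in Ac and 203 in C, against 94.6 in aC+C. In NK cells it was 224, 167, 279 and 132 CPM in the same order. In CD4 T cells it was 536, 315, 746 and 401 CPM. C was thus the highest library in these 3 classes, with aC+C the lowest in the first 2 and Ac in CD4 T cells. The ratio of aC+C to IgG was 0.554 (0.518 to 0.593) in CD8 T, 0.590 (0.527 to 0.660) in NK, 0.585 (0.533 to 0.642) in other T, 0.651 (0.565 to 0.749) in regulatory T and 0.749 (0.666 to 0.841) in CD4 T cells. In C1q-high macrophages the level was 2237 CPM in IgG, 2492 in Ac and 2184 in C, against 2214 in aC+C, and the interval of the ratio of aC+C to IgG, 0.967 to 1.01, spanned 1. That interval did not overlap those of the 5 lymphocyte classes. The ratio was 0.832 in C1q-low cells and 0.728 in stromal cells, the latter within the range of the lymphocyte classes. It was 0.732 on the fibroblast side of the stromal class and 1.13 in the rest of it, as described further on.

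Fosb, a close paralog of Fos, had its lowest ratios of aC+C to IgG in CD4 T and regulatory T cells. In CD4 T cells its level was 600 CPM in IgG, 329 in Ac and 567 in C, against 250 in aC+C. In regulatory T cells it was 291, 193, 357 and 138 CPM. IgG and C were the higher libraries in both. The ratio of aC+C to IgG was 0.417 (0.365 to 0.476) in CD4 T and 0.473 (0.394 to 0.566) in regulatory T cells. In C1q-low cells Fosb stood at 712, 670, 610 and 388 CPM, a ratio of aC+C to IgG of 0.545. In C1q-high macrophages it stood at 854, 967, 749 and 856 CPM, with a ratio of 1.00 (0.964 to 1.04). The 2 macrophage classes of the same libraries therefore differed for this gene. In Ac against IgG, the Fosb intervals of all 5 lymphocyte classes lay below those of the 3 other classes, and Fosb was the only member for which this held. Egr2 could not be compared in this way. How often such a separation occurs among all genes was not counted.

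Jun, the main partner of Fos, did not follow it in every class. In CD4 T cells its level was 181 CPM in IgG, 123 in Ac and 308 in C, against 143 in aC+C, so C stood above the other 3, at 1.70 times IgG (1.44 to 2.01). In regulatory T cells C was 1.45 times IgG and in other T cells 1.37 times. Without macrophage UMIs, Jun of regulatory T cells stood at 179 CPM in IgG and 169 in C, a ratio of 0.947. Over all alternatives the lowest ratio of C to IgG was 1.135 in other T and 1.42 in CD4 T cells. In C1q-high macrophages Jun stood at 510, 453, 485 and 335 CPM, and in C1q-low cells at 634, 660, 689 and 394 CPM. The ratios of aC+C to IgG, 0.657 and 0.622, were the lowest of Jun in any class. In C1q-high macrophages this stood beside ratios near 1 for Fos and Fosb in the same cells. In other T cells the ratio was 1.09, with an interval of 0.982 to 1.21.

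Junb and Jund, Jun paralogs that can hold back some actions of Jun, differed less. In CD8 T cells Junb stood at 1063 CPM in IgG, 942 in Ac and 1141 in C, against 722 in aC+C. In CD4 T cells it stood at 3231, 2614, 3201 and 2286 CPM. The ratio of aC+C to IgG was 0.679 (0.662 to 0.697) in CD8 T cells and 0.708 in CD4 T cells, against 1.00 (0.974 to 1.03) in C1q-high macrophages. Jund ranged only from 0.834 (stromal) to 1.09 (NK) in that comparison, and 0 of its 24 ratios to IgG reached 1.5 times in either direction. In CD8 T cells its levels were 980, 833, 1000 and 819 CPM.

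Atf3, a stress-responsive partner of Jun proteins that often represses its targets, rests on few molecules in lymphocytes. Its ratios of Ac and aC+C to IgG were the lowest of any member tested in CD8 T, CD4 T and other T cells. In NK cells of aC+C the Fos ratio was lower, at 0.59 against 0.663. In CD8 T cells the level of Atf3 was 20.03 CPM in IgG, 6.28 in Ac and 20.8 in C, against 8.56 in aC+C. In CD4 T cells it was 94.2, 49.0, 90.3 and 24.1 CPM. In both classes IgG and C were high, and Ac and aC+C low. The order of libraries in CD8 T cells is also that of the myeloid marker sum given further on, and Atf3 of C1q-low cells is far above that of CD8 T cells. Without macrophage UMIs Atf3 stood at 9.98, 5.42, 18.6 and 7.51 CPM in CD8 T cells, so that IgG was no longer among the high libraries and the ratio of aC+C to IgG was 0.753 in place of 0.427. With 5% background removed, the Atf3 of CD8 T cells was at 0 in Ac and aC+C. The ratio of aC+C to IgG was 0.256 (0.167 to 0.381) in CD4 T and 0.279 (0.186 to 0.403) in other T cells. A single cell held 8.70% to 16.9% of the Atf3 UMIs of CD4 T cells in a library. Stromal cells differed: Atf3 stood there at 198 CPM in IgG, 135 in Ac and 129 in C, against 210 in aC+C, so IgG and aC+C were the high libraries.

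Egr1 and Egr2 encode zinc finger factors, induced through serum response elements, that in T cells follow antigen receptor signals; Egr2 is also linked to T cell unresponsiveness. Egr1 in CD8 T cells stood at 112 CPM in IgG, 103 in Ac and 112 in C, against 71.9 in aC+C, with aC+C the lowest. In CD4 T cells it stood at 120, 108, 192 and 111 CPM, with C the highest, at 1.59 times IgG (1.30 to 1.96). With a mitochondrial maximum of 5% that ratio was 1.01. In C1q-low cells it stood at 159, 265, 198 and 117 CPM, where Ac was the highest library, at 1.67 times IgG (1.45 to 1.92). A single cell held 17% of the Egr1 UMIs of CD4 T cells in IgG and 14.7% in C. Egr2 could be compared only in myeloid and stromal cells. It stood at 68.6, 67.6, 38.8 and 28.1 CPM in C1q-low cells, and at 19.6, 12.3, 10.5 and 7.65 CPM in stromal cells. The ratios of aC+C to IgG were 0.410 (0.319 to 0.528) and 0.389 (0.314 to 0.484). The makeup of the stromal class also differed, as described further on. The Egr2 ratio was 0.503 on its fibroblast side and 0.489 in the rest of it. In Ac these were 0.75 and 0.730, in place of 0.625 for the whole class. The Egr2 interval of C1q-high macrophages for aC+C against IgG, 0.789 to 1.096, spanned 1. In lymphocyte classes Egr2 stayed at or below 8.88 CPM in every library.

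Zfp36, which encodes an RNA-binding protein (tristetraprolin) that hastens the decay of AU-rich transcripts, followed Fos in CD8 T cells. Its level there was 99.1 CPM in IgG, 61.1 in Ac and 114 in C, against 49.0 in aC+C, with a ratio of aC+C to IgG of 0.494 (0.451 to 0.541). In C1q-high macrophages it stood at 1076, 1122, 923 and 1039 CPM, within 1.22 times over the 4 libraries. Ier2, an early response gene of less defined function, had the smallest median difference between libraries: its highest library was 1.2 times its lowest in the median class, beside 1.21 for Jund and 1.27 for Junb. Its largest, in CD4 T cells, was 1.69 times, above the 1.38 and 1.58 of those genes. Levels in CD8 T cells were 279, 271, 278 and 237 CPM. Its ratios of aC+C to IgG ran from 0.789 in C1q-high macrophages to 0.986 in other T cells, an order of classes unlike that of Fos.

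In the main values, some members went 1 way in every class tested and others did not. In Ac against IgG, Atf3 was lower in all 7 classes tested, with ratios of 0.314 to 0.901 and every interval below 1. Its ratio was 0.973 (0.776 to 1.22) in NK cells that were not cycling, however. In other T cells without macrophage UMIs it was 1.204. In C against IgG, Egr2 was below 1 in the 3 classes tested. In the main values of aC+C against IgG, the Fos, Egr1, Ier2 and Zfp36 ratios were below 1 in all 8 classes. Their intervals spanned 1 in 1 class for Fos, 1 for Egr1, 4 for Ier2 and 2 for Zfp36. The sizes of these ratios differed between classes beyond counting error. Under alternative ways of counting, Ier2 passed 1 in every lymphocyte class and reached 1.39 in NK cells. Egr1 reached 1.21 in regulatory T and 1.175 in CD4 T cells. Zfp36 reached 1.049 in CD4 T cells and Fos 1.021 in C1q-high macrophages. In stromal cells outside the fibroblast side, described further on, Ier2 was 1.12, Fos 1.13, Egr1 1.00 and Zfp36 0.919. The median over members ran from 0.643 in CD8 T cells to 0.896 in C1q-high macrophages. Between them lay other T (0.669), stromal (0.763), C1q-low (0.784), CD4 T (0.789), regulatory T (0.809) and NK cells (0.813). In Ac against IgG, the medians of the lymphocyte classes were 0.739 to 0.915, and those of C1q-high and C1q-low cells were 1.01 and 1.02. The stromal median was 0.87, within the range of the lymphocyte classes. The makeup of that class differed between libraries, however, as described further on. On its fibroblast side and in the rest of it, Fos in Ac was 0.974 and 1.28 times IgG, beside 0.933 for the whole class. Jun was 0.817 and 1.05, and Atf3 0.662 and 0.688. In aC+C, Egr1 was 0.718 and 1.00, and Junb 0.922 and 1.07. No median over members was taken for either part. In C against IgG, the medians were 1.05 to 1.2 in lymphocyte classes and 0.851 to 0.962 in the other classes. The barcodes with 1 to 50 UMIs, which hold RNA free in the cell suspension, went another way. Fos stood there at 763 CPM in IgG, 1048 in Ac and 1081 in C, against 1095 in aC+C, and the median ratio over members was 1.08 for Ac, 1.19 for C and 1.15 for aC+C. The Fos level of free RNA was thus higher in all 3 libraries than in IgG, also where Fos of lymphocytes was lower.

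**Figure D3:**
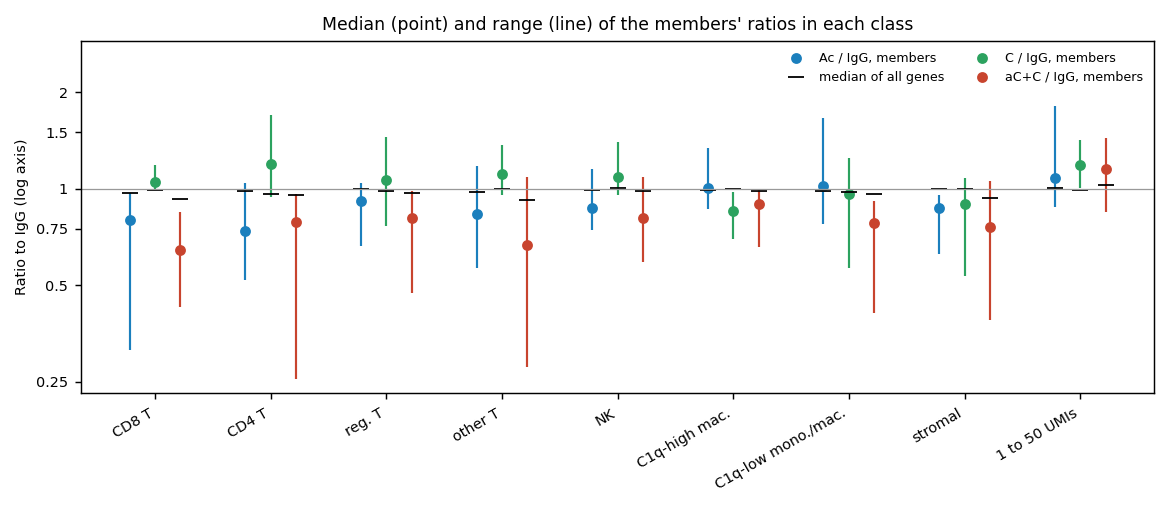
Median (point) and range (line) over the members' ratios to IgG in each class, on a log axis, with the median over all genes as a black dash. In aC+C the median lies below that of all genes in all 8 classes, lowest in CD8 T cells (0.643), and above it in barcodes of 1 to 50 UMIs (1.15).

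Macrophage RNA in the lymphocyte classes moved with Fos in several of them. Summed over 11 myeloid markers, it was 242 CPM in IgG, 120 in Ac and 405 in C, against 164 in aC+C among CD8 T cells, and 195, 108, 314 and 125 CPM among NK cells, the same order of libraries as Fos in CD8 T cells except between Ac and aC+C. Among other T cells the sum was 696, 184, 868 and 332 CPM. Among CD4 T cells it was 215, 106, 243 and 479 CPM, so aC+C was highest where its Fos was below IgG. Regulatory T cells had 91.4, 250, 184 and 210 CPM, so IgG was lowest although Fos was lower in aC+C than in IgG. At most 1 of the 11 markers (Ms4a7 or Adgre1) was at 0 in a lymphocyte class of a library. The share of CD8 T cells with no UMI of Lyz2, C1qa, C1qb, C1qc or Apoe was 55.7% in IgG, 38.6% in Ac and 27.6% in C, against 25.2% in aC+C. In these cells Fos stood at 140, 112, 216 and 128 CPM, and the ratio of aC+C to IgG was 0.912 in place of 0.554. The other values without such UMIs were 0.763 in NK, 0.702 in other T, 0.593 in CD4 T and 0.601 in regulatory T cells for Fos, and 0.622 in CD8 T, 0.330 in CD4 T and 0.987 in NK cells for Fosb. Such cells have fewer UMIs, with a median of 10708.5 in IgG and 8297 in aC+C among CD8 T cells. When each CD8 T cell was weighted equally, the Fos levels were 181, 128, 206 and 133 CPM, a ratio of aC+C to IgG of 0.732. Subtracting 5% of background RNA from every class lowered that ratio to 0.3003. The size of the Fos difference in CD8 T and NK cells therefore depended on how cells were counted, while Fosb in CD4 T and regulatory T cells was at or below 0.473 under these 3 alternatives. With a minimum of UMIs set per library, however, the Fosb ratio was 0.623 in CD4 T and 0.647 in regulatory T cells, and with stricter gates it was 0.501 in CD4 T cells. The part of macrophage RNA in the differences beyond these values was not tested.

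**Figure D4:**
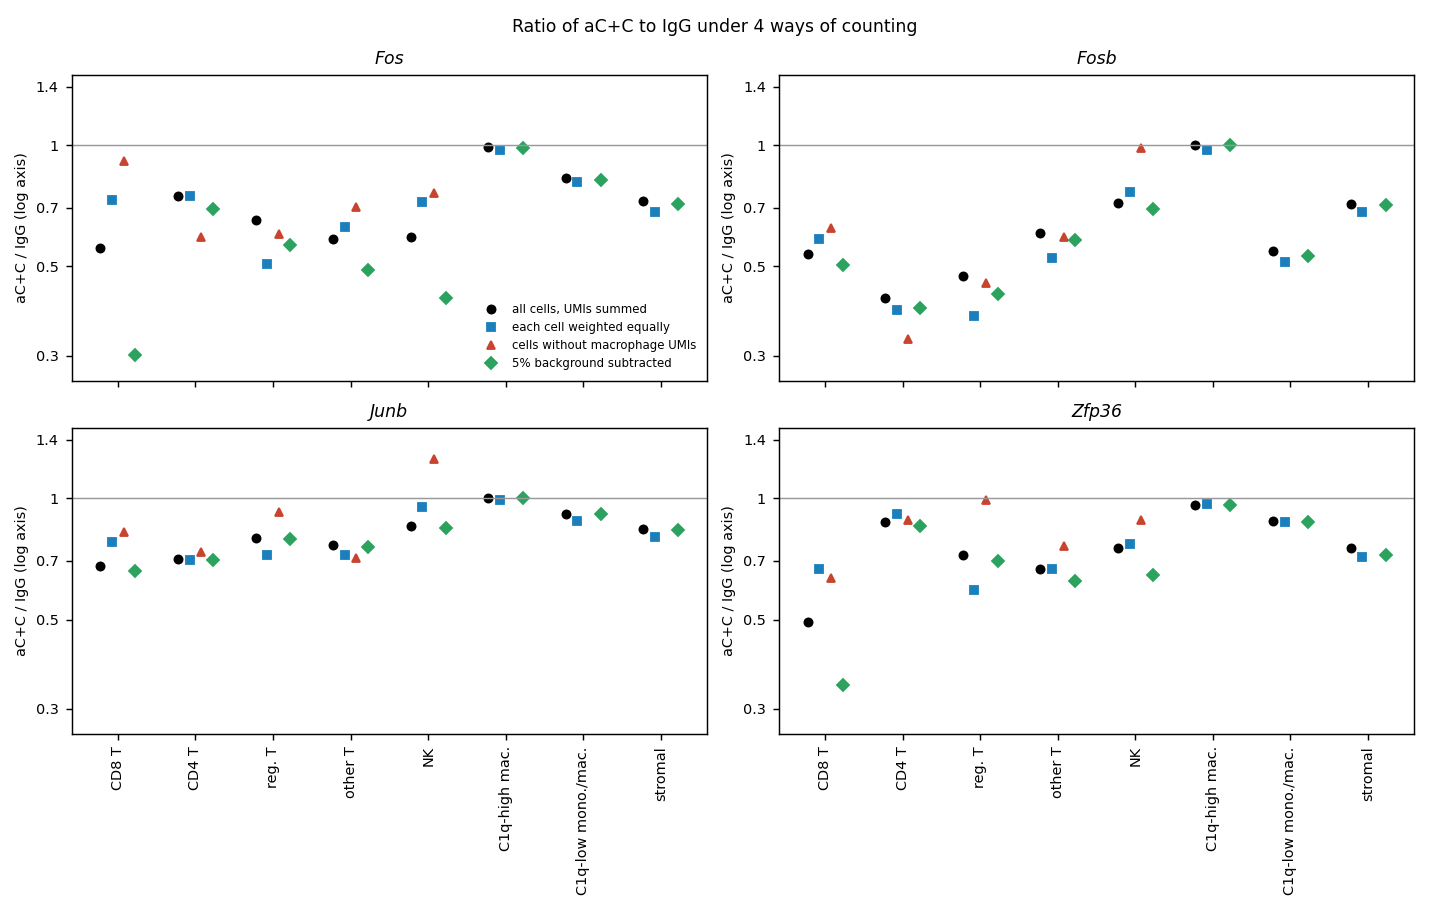
Ratio of aC+C to IgG (log axis) for Fos, Fosb, Junb and Zfp36 in each class, counted in 4 ways: all UMIs summed, cells weighted equally, only lymphocytes without macrophage UMIs, and after subtracting 5% of background RNA. Fos in CD8 T cells runs from 0.3003 to 0.912 over these ways, whereas C1q-high macrophages stay near 1 for all 4 genes.

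Heat shock genes and mitochondrial RNA are often read as marks of handling. The 13 heat shock and dissociation genes summed to 5777 CPM in IgG, 5268 in Ac and 5641 in C, against 6241 in aC+C among CD8 T cells. In aC+C against IgG, 5 of 50 lymphocyte pairs of this list were at least 1.5 times higher and 1 lower, with a median ratio of 1.04, beside 1.67% higher, 5.27% lower and a median of 0.95 over all genes. In Ac, 7 of 52 were higher and 3 lower, beside 1.25% and 2.61%. The inducible heat shock genes Hspa1a, Hspa1b and Hspb1 differed in several classes. In Ac against IgG, Hspa1a was at least 1.5 times higher in 4 of 5 classes tested and Hspa1b in 4 of 6. In C against Ac, Hspa1b was lower in 6 of 6. Hspb1 was higher in aC+C than in IgG in 3 of 3 classes tested. Hspb1 stood at 2.83 CPM in IgG, 5.68 in Ac and 5.46 in C, against 17.7 in aC+C among CD8 T cells. In C1q-low cells IgG had 1 UMI of Hspb1, so no ratio is given there. Mitochondrially encoded genes took 3.905% of UMIs of CD8 T cells in IgG, 3.37% in Ac and 3.92% in C, against 3.56% in aC+C. Each group was prepared as 1 library, so handling and group cannot be told apart.

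The makeup of the stromal class differed between libraries. Stromal cells with Dcn and Col3a1 of at least 25 UMIs per 10000, the fibroblast side, were 59.1% of the class in IgG, 45.2% in Ac and 55.6% in C, against 36.4% in aC+C. On that side Fos stood at 3105, 3023, 2568 and 2273 CPM, and the ratio of aC+C to IgG was 0.732. The rest of the class was defined only by falling below that limit, with no tumor marker required. There Fos stood at 1025, 1315, 1134 and 1155 CPM, a ratio of 1.13 (1.09 to 1.16). IgG had 91 cells on the fibroblast side and 63 in the rest. Cycling and other CD8 T cells had Fos ratios of 0.474 and 0.623, and Junb ratios of 0.630 and 0.737. Both parts were thus lower in aC+C.

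Shares of cells with a UMI gave the same order for Fos in CD8 T cells. After each cell was thinned to 1000 UMIs, Fos was detected in 15.8% (13.6 to 18.3) of CD8 T cells in IgG, 9.59% (7.94 to 11.4) in Ac and 17.6% (14.6 to 21.0) in C, against 8.30% (6.64 to 10.2) in aC+C. Unthinned shares were 61.7%, 53.3%, 65.5% and 49.9%. Among regulatory T cells the thinned shares were 29.2%, 25.2%, 31.0% and 14.95%, so aC+C was again the lowest. In C1q-high macrophages they were 80.2%, 81.6%, 75.04% and 79.6%. Fosb was found in 42.0%, 23.3%, 28.8% and 18.1% of CD4 T cells, where IgG stood above the other 3 libraries. No class should lack these genes altogether, so no share can serve as a floor for free RNA.

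**Figure D5:**
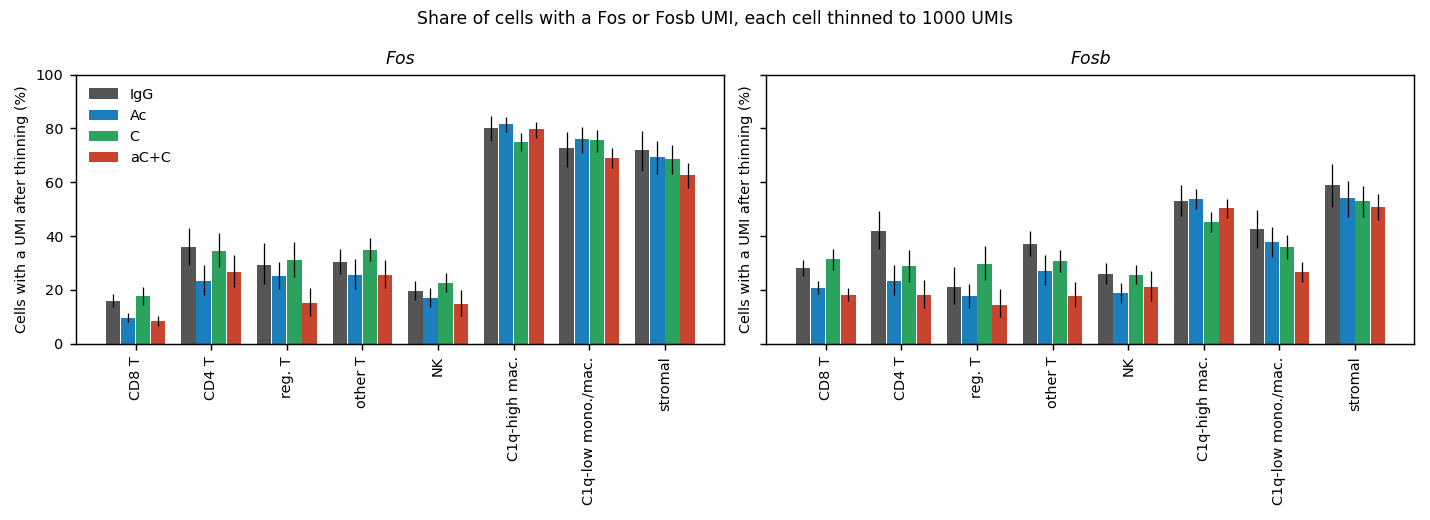
Share of cells (%) with at least 1 Fos or Fosb UMI after thinning each cell to 1000 UMIs, by class and library, with exact Clopper-Pearson 95% intervals. For Fos, lymphocyte classes lie between 8.30% and 35.9% and the other classes between 62.7% and 81.6%.

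The libraries other than IgG were also set against each other. In aC+C against C, 26 of 74 pairs were at least 1.5 times lower (background 4.95%) and 1 higher (1.70%). Of the lower pairs, 23 were among the 44 lymphocyte pairs. The Fos ratio was 0.465 in CD8 T, 0.474 in NK, 0.513 in other T, 0.538 in CD4 T and 0.606 in regulatory T cells, all below the intervals of the 3 other classes (1.01 in C1q-high macrophages). Such a separation was not counted over all genes here either. In aC+C against Ac, 8 pairs were lower (2.87%) and 1 higher (1.88%), with a Fos ratio of 0.812 in CD8 T and 1.27 in CD4 T cells. In C against Ac, 17 pairs were higher (3.07%) and 2 lower (1.73%), all 17 of them in lymphocytes. Fos and Jun in CD4 T cells reached 2.37 and 2.51. By the median over members, C and Ac lay on opposite sides of IgG in each lymphocyte class, and aC+C was nearer to Ac. Single members could differ from this. Jund in NK cells was 1.15 times IgG in both Ac and C, and Jun in other T cells 1.175 and 1.37 times. Egr1 in regulatory T cells was 0.667 of IgG in Ac and 0.765 in C.

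Other immediate early genes did not all go with the members. Of 31 listed, 30 of 132 lymphocyte pairs were at least 1.5 times lower in aC+C than in IgG and 8 higher, with a median of 0.847, beside 5.27%, 1.67% and 0.95 over all genes. The nuclear receptor genes Nr4a1, Nr4a2 and Nr4a3, which antigen receptor signals induce, were at least 1.5 times lower in aC+C in 5, 7 and 6 of 8 classes. In CD8 T cells Nr4a2 stood at 448 CPM in IgG, 315 in Ac and 332 in C, against 225 in aC+C, and Nr4a3 at 105, 71.3, 62.9 and 46.3 CPM. In C against IgG, Nr4a3 was at least 1.5 times lower in 7 of 8 classes and below 1 in all of them, with a median ratio of 0.59, where the Fos, Jun and Egr1 ratios of CD4 T cells were above 1. Klf2, a factor of quiescent lymphocytes, was at least 1.5 times higher in 4 classes and lower in 1 in C, and higher in 4 and lower in 0 in aC+C. In CD4 T cells it stood at 232, 216, 452 and 363 CPM.

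Of 24 other AP-1 and leucine zipper genes in the files, 9 of 77 lymphocyte pairs were at least 1.5 times lower in aC+C and 0 higher, with a median of 0.872, beside the same 5.27%, 1.67% and 0.95 over all genes. In C against IgG, 9 were lower and 2 higher, beside 1.71% and 1.52%. Crem, a repressor of cyclic AMP response elements, was lower in C in 5 of 8 classes, and Fosl2, a Fos paralog, in 4. In CD8 T cells Crem stood at 153 CPM in IgG, 114 in Ac and 92.4 in C, against 118 in aC+C, and Fosl2 at 197, 159, 123 and 100 CPM. C was the lowest library for Crem, although Fos was highest there. Of 23 feedback and upstream genes, 11 of 92 lymphocyte pairs were lower in aC+C and 1 higher, with a median of 0.842, again beside 5.27%, 1.67% and 0.95. Over all 8 classes, lower genes included Zfp36l1, a paralog of Zfp36, in 3 classes, and Dusp6, Dusp4 and Spry2, which restrain kinase signalling, in 2 each.

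Over the 32 points formed by 8 classes and 4 libraries, the genes most like the mean of the members were named by Pearson's r on log2 of the level plus 10 CPM. These were Klf4 (0.965), Mib1 (0.964), Cd2ap (0.960), Sav1 (0.955) and Tiparp (0.949). Points of a library share its preparation and depth, and most of the likeness is between classes. After each class was centred on its own mean, which leaves only the differences between libraries, they were Irf2bp2 (0.871), Ccnl1 (0.828), Cyfip1 (0.825), Yy1 (0.8) and Hnrnpd (0.797). Of the members, Fos was most like the other 9 over all points (0.982) and Jund least (-0.135). After centring, Jund was at 0.735 and Egr2 lowest, at 0.453.

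Classes with fewer than 100 cells in some library give levels only. Mast cells or basophils, 5 to 18 cells in a library, had Egr1 at 7579 CPM in IgG, 6757 in Ac and 2215 in C, against 4491 in aC+C, and Jun at 5495, 3039, 5686 and 5588 CPM, above any compared class. Neutrophils, 9 to 18 cells, had Junb at 4341, 5725, 5111 and 4609 CPM. Migratory dendritic cells, 33 to 70 cells, had Fos at 416, 257, 234 and 203 CPM, below both macrophage classes, with IgG the highest library. Conventional dendritic cells of type 1, 20 to 33 cells, had Fos at 1514, 1742, 1110 and 885 CPM, with aC+C the lowest library.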

How the data were processed

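Per the file headers and the values, the deposited files hold UMI counts for each gene and barcode, raw and not normalized and not filtered for cells; the deposited lists of genes and barcodes (other: names) index them. Per the submitters' processing notes the authors used Cell Ranger 2.1.1 and build mm10; the matrix headers name software 3.0.2. Totals were 61519049 UMIs in IgG, 65973242 in Ac and 75665201 in C, against 75067320 in aC+C.

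Lineage scores were the mean over markers of log1p counts per 10000, divided by the 90th percentile and held at 1. A cell took the highest class if its score was at least 0.2 and 1.5 times the next. T cells were split by Cd8a, Cd8b1, Cd4, Cd40lg and Foxp3, and macrophages at 6 C1q UMIs per 10000. Of 117 marker genes 113 were in the files. Gate thresholds were set after marker counts were seen. The members and lists were chosen with earlier results of these data known.

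Level intervals are exact Poisson, ratio intervals conditional binomial and share intervals Clopper-Pearson, at 95%, for counting error only; molecules of a cell are not independent. Ratios need 100 UMIs over both libraries. All members are named; of each list, up to 6 genes past 1.5 times in most classes; and the 5 genes of highest r. The procedure was tested on simulated data for aC+C against IgG CD8 T counts. Alternatives covered UMI and mitochondrial limits, gates, doublets by Scrublet (scanpy 1.11.5; 94 to 142 cells removed per library), scaling, weighting, background, and splits of cells. The splits by macrophage UMIs, by cycling and by stromal side, and leaving out other T cells, were chosen after seeing the data. Python 3.11.15, numpy 2.4.6, scipy 1.17.1 and pandas 2.3.3 were used. Each of the 3' UMI counts stands for 1 molecule, whatever its length.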

Additional observations from a re-analysis of the deposited data

Results flagged for a closer look

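Atf3 differed in direction between classes of the same libraries. In aC+C against Ac its ratio was 1.56 in stromal cells and 0.490 in other T cells, and in aC+C against C it was 1.63 in stromal cells and 0.266 in CD4 T cells. Both were picked out because the counting intervals lie on opposite sides of 1, and the difference between the classes was not tested, since each group has 1 library.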

How the results depend on the processing

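The 12 counts of pairs at least 1.5 times higher or lower against IgG were recomputed under 14 alternatives that kept this threshold. For aC+C, lower lymphocyte pairs ran from 12 to 22 (15 as reported) and lower myeloid and stromal pairs from 4 to 7 (5 as reported). Limits of 500 or 2000 UMIs, a mitochondrial maximum of 5%, scaling by a trimmed mean, leaving out the top cell and leaving the members out of the total, and also leaving out other T cells, moved no count by over 1.5 times. Lower lymphocyte pairs of Ac were 13 with 5% background removed. Lower myeloid and stromal pairs of Ac were 2 with 5% background removed, with doublets removed, with a mitochondrial maximum of 20% and with cells weighted equally; equal weights also left 0 higher. Higher lymphocyte pairs of C were 1 with equal weights and with the 20% maximum, 4 with a minimum of UMIs set per library and with stricter gates, and 5 without macrophage UMIs. Lower lymphocyte pairs of C were 1 without cycling cells, and lower myeloid and stromal pairs of C were 5 with equal weights. Without macrophage UMIs, 1 lymphocyte pair was higher in aC+C, and the Atf3 ratio of other T cells in Ac turned from 0.568 to 1.204. With a threshold of 2 times, 6 lymphocyte and 2 other pairs were lower in aC+C, 1 and 0 in Ac, and 0 of the others in C; 0 pairs were higher in Ac or C. The cause of each of these moves was not tested. No paired analysis was possible because each group has 1 library. Intervals cover counting error only, so differences between animals or preparations of 1 group are not measured. The conflict between labels and cells leaves the tissue, tumor and treatments unstated.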
